A study of Homo sapiens with 2 samples.

Results

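The genes described are 10 keratins, KRT7, KRT8, KRT18, KRT19, KRT17, KRT6A, KRT15, KRT23, KRT80 and KRT81, in olaparib-resistant and parental Capan-1 cells. They were taken by symbol from a table of 31845 Ensembl genes, in which 9 of the 10 had a row, and KRT81, which had none, was taken as 0. The table holds 1 RNA-seq library of resistant cells, selected in rising olaparib doses between 15 nM and 128 uM, and 1 of the parental cells, which came from ATCC. Capan-1 was derived from a pancreatic adenocarcinoma and its BRCA2 gene is mutant, and olaparib is a PARP inhibitor, a drug class to which cells with faulty homologous recombination are sensitive. By its title, the series links resistance to amplification of this BRCA2 gene. The cell type field of both samples reads breast cancer. The labels do not say whether the resistant line is 1 clone or a pool, and they do not spell out the heading of its columns, which were taken as resistant because they were the remaining ones. Every direction below rests on that assignment.

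Keratins are the intermediate filament proteins of epithelial cells. A filament is built from heterodimers of an acidic type I chain and a basic type II chain, so each type I keratin needs a type II partner. KRT8 and KRT18 are the founding pair of simple, single-layered epithelia, and KRT7 and KRT19 are added in ducts and glands, the pancreatic duct among them. KRT17, KRT6A and KRT15 belong to stratified epithelia, KRT17 and KRT6A as keratins of wounded or stressed skin and KRT15 as a keratin of basal cells. KRT80 is a type II keratin of differentiating epithelia, KRT81 a hair keratin, and KRT23 a type I keratin first described in pancreatic cancer cells.

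The type I genes lie in a cluster on chromosome 17 and the type II genes in a cluster on chromosome 12, with the exception of KRT18, a type I gene next to KRT8 on chromosome 12. KRT8, KRT18 and KRT19 also have intronless copies elsewhere in the genome, called processed pseudogenes. The stretches below show how close a copy of KRT18 and one of KRT19 are, because reads from such a stretch can fit more than 1 row of the table. Each is a window of 90 bases from the middle of the coding sequence, read 5′ to 3′ from the GENCODE release 29 transcripts (GRCh38), and capitals mark bases in the copy that differ from the gene. The copies shown were those with the most counts in resistant cells among those that aligned over the window without a gap.
KRT18: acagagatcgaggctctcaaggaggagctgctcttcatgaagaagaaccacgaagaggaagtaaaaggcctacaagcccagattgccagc
KRT18P17: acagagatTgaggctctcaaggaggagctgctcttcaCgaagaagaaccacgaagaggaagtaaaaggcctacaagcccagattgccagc
KRT19: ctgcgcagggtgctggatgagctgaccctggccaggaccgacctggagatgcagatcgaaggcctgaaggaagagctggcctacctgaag
KRT19P1: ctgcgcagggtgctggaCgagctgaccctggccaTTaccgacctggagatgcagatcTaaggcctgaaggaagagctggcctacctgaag
The KRT18 stretch covers coding bases 601 to 690 on the plus strand of chromosome 12, and KRT18P17, on the minus strand of chromosome 3, differed at 2 of the 90 bases. The KRT19 stretch covers coding bases 556 to 645 on the minus strand of chromosome 17, and KRT19P1, on the plus strand of chromosome 6, differed at 4 bases. Over the aligned coding sequence, identity was lower than in these windows, at 93.1% for KRT18P17 and 91.0% for KRT19P1.

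The resistant library held 34507480 counts and the parental library 34572931. A count was scaled to its library with TMM factors, and ratios are resistant over parental. With 1 library per group there was no replicate and no test, so genes were called by size alone, as higher or lower if the ratio reached 2-fold and the larger count was 50 or more. The intervals given are exact 95% intervals of the ratio and cover counting error only. The BRCA2 row, read as a check of the labels, held 7585 counts in resistant and 1381 in parental cells, a ratio of 5.53. Levels of different genes were compared as FPKM, which the authors scaled for gene length and library size.

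Across the members, 1 keratin was lower and 0 were higher by this rule, while the ductal and simple keratins all lay modestly above their parental values. KRT23 was 2.25-fold lower in the resistant library. The other 7 members with enough counts, KRT7, KRT8, KRT18, KRT19, KRT17, KRT15 and KRT80, had ratios from 1.28 to 1.68, within 2-fold. Every one of those 7 intervals lay above 1, but the intervals cover counting error only and are narrow at high counts. The share of all genes with an interval above 1 was not computed. KRT6A and KRT81, with 1 count at most, could not be compared. Of the 15102 genes that reached 50 counts, 8.95% were at least 2-fold lower and 6.00% at least 2-fold higher, so 1 lower gene of 8 is close to what the whole table shows. At a smaller size of 1.25-fold, chosen after seeing the data, 7 of the 8 lay above and 1 below, and of all genes 34.4% lay above and 34.7% below. The median log2 ratio of the 8 was 0.52, and that of all genes was 0.06. In a bulk library fewer cells of a kind and less RNA per cell cannot be told apart.

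**Figure D1:**
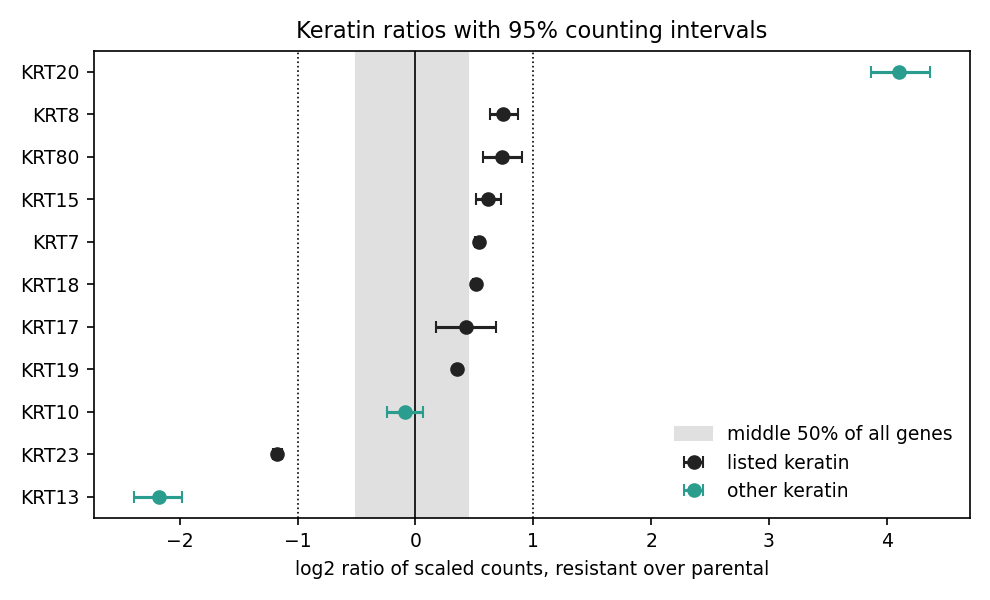
Log2 ratio of scaled counts (resistant over parental) for the 8 listed keratins and the 3 other keratins with at least 50 counts, with 95% counting intervals (bars), the middle 50% of all genes (grey band) and the 2-fold lines (dotted). Of the listed keratins, KRT23 alone passes a 2-fold line, at -1.17, and the other 7 lie between 0.35 and 0.75.

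Among the type I keratins of simple epithelia, KRT19, the smallest keratin and a marker of ducts, had the highest level. KRT19 had 51896 counts in resistant cells, against 40864 in parental cells. Its FPKM was 932 in resistant and 704 in parental cells, rank 49 and rank 62 of all genes. The ratio of its counts was 1.28 (interval 1.262 to 1.295), the smallest of the 7 members above 1. KRT18, the type I chain of the founding pair, had 34914 counts in resistant cells, against 24652 in parental cells. Its FPKM was 590.3 in resistant and 399.7 in parental cells, and its ratio was 1.43 (interval 1.40 to 1.45). Both genes were among the abundant transcripts of each library, and both lay within 2-fold.

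Among the type II keratins of simple epithelia, KRT7, a keratin of ducts and glands, was the most abundant. KRT7 had 20455 counts in resistant cells, against 14193 in parental cells, with an FPKM of 410.2 in resistant and 273 in parental cells. Its ratio was 1.45 (interval 1.42 to 1.48), larger than that of 80.7% of all genes at the count minimum. KRT8, the type II chain of the founding pair, had only 1538 counts in resistant cells, against 922 in parental cells. Its FPKM was 33.3 in resistant and 19.2 in parental cells. Its ratio was 1.68 (interval 1.55 to 1.82), larger than that of 89.3% of genes. KRT80 had nearly the same ratio with an overlapping interval, and with the trend of ratios over gene length removed, an alternative chosen after seeing the data, its log2 ratio was 0.965 and that of KRT8 0.74.

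The KRT8 row was low beside its partner. The FPKM of KRT18 was 17.7 times that of KRT8 in the resistant library and 20.9 times in the parental library, although the proteins pair one to one. KRT7 was closer to KRT18, at a KRT7 over KRT18 ratio of 0.695 in resistant cells and 0.683 in parental cells. Sequence shared with other genes was measured as well. Of the 1638 windows of 50 bases in the principal KRT8 transcript, 41.3% occurred exactly in a transcript of another gene, and that share was 35.1% for KRT18, 1.79% for KRT19, 0.997% for KRT7 and 0 for KRT23. With windows of 100 bases it was 7.56% for KRT8 and 0 for KRT7, KRT18, KRT19 and KRT23. KRT8 and KRT18 also overlap each other on opposite strands in the release 29 annotation. The counting rule for reads that fit several genes is not given in the sources used here, and the part of shared sequence in the low KRT8 row was not tested.

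The copies held counts of their own. The 34 KRT8 copies with a row summed to 2633 counts in resistant cells, against 2150 in parental cells, more than the KRT8 row itself, at 171% and 233% of it. With these added to KRT8, the totals were 4171 counts in resistant cells, against 3072 in parental cells. The summed KRT8 copies alone had a ratio of 1.23 (interval 1.164 to 1.306), beside 1.68 for the KRT8 row. The 39 KRT18 copies, of which 1, KRT18P55, is annotated as unprocessed, summed to 999 counts in resistant cells, against 812 in parental cells, 2.86% and 3.29% of KRT18. KRT19P1, the 1 KRT19 copy with a row, had 271 counts in resistant cells, against 222 in parental cells.

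Single copies did not all follow their gene. Over all genes at the count minimum, 15.0% passed 2-fold in either direction and the median log2 ratio was 0.06. KRT8P3, which matched the KRT8 coding sequence over 97.1% of 1449 aligned positions, had 911 counts in resistant cells, against 622 in parental cells, a log2 ratio of 0.56 beside 0.75 for KRT8. KRT8P45 had 737 counts in resistant cells, against 582 in parental cells, a log2 ratio of 0.35. KRT8P39 had 34 counts in resistant cells, against 97 in parental cells, a log2 ratio of -1.48, and was the 1 copy past 2-fold. KRT8P46 and KRT18P31 also lay below 0, at log2 ratios of -0.95 each. These 3 copies lie within NUP107, MANBA and NIPBL, on the same strand as the host gene, and those hosts had log2 ratios of -0.26, -0.67 and 0.19. KRT18P15 and KRT18P11 also lie on the strand of a host gene, CMTM8 and PCDH11X, with log2 ratios of 0.12 and 0.87 for the copies and -0.80 and -0.08 for the hosts. Whether reads of the host genes reach these copies was not tested.

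**Figure D2:**
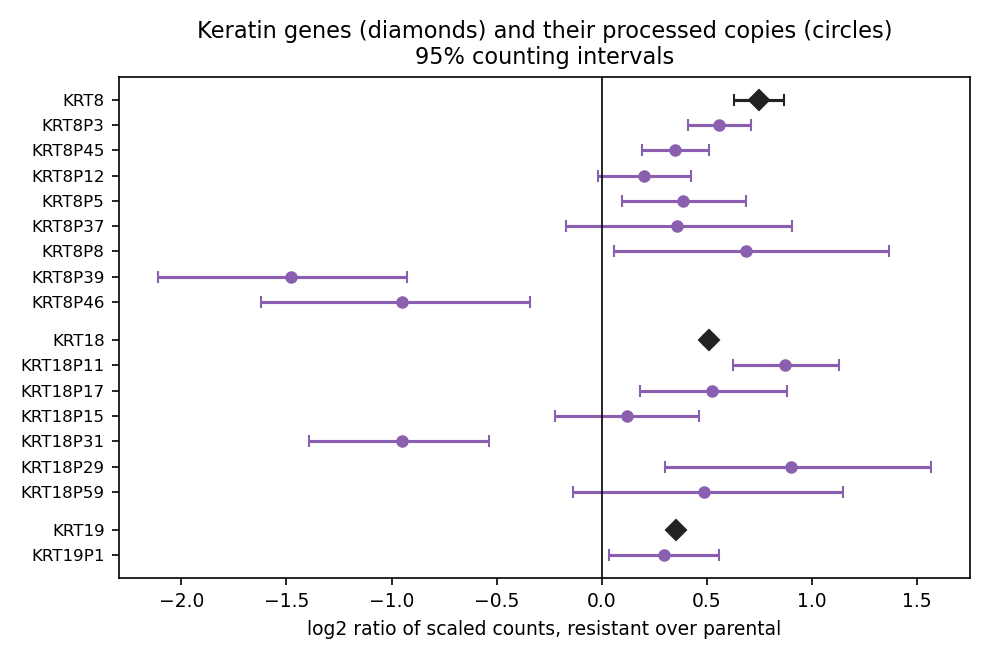
Log2 ratio of scaled counts (resistant over parental) for KRT8, KRT18 and KRT19 (diamonds) and each of their processed copies that reached 50 counts (circles), with 95% counting intervals. KRT8P39, KRT8P46 and KRT18P31 lie between -1.48 and -0.95, and the other 12 copies lie above 0, from 0.12 to 0.90.

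KRT23 was the member that stood apart in direction. It had 7465 counts in resistant cells, against 16931 in parental cells, with an FPKM of 59.1 in resistant and 128 in parental cells. The log2 ratio was -1.17, and 6.52% of all genes had a lower one. The interval of the ratio, 0.432 to 0.456, lay below the 2-fold line of 0.5. By FPKM, KRT23 ranked 1106 in resistant cells and 383 in parental cells. None of the 1938 windows of 50 bases in its transcript occurred in a release 29 transcript of another gene.

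KRT15 and KRT17 of stratified epithelia, and KRT80, all had lower FPKM values than KRT8 in each library. KRT15 had 1799 counts in resistant cells, against 1180 in parental cells, with an FPKM of 24.1 in resistant and 15.2 in parental cells and a ratio of 1.535 (interval 1.425 to 1.653). KRT17 had 306 counts in resistant cells, against 229 in parental cells, an FPKM of 5.465 and 3.92, and a ratio of 1.345 (interval 1.13 to 1.60). KRT80 had 837 counts in resistant cells, against 505 in parental cells, an FPKM of 2.90 and 1.68, and a ratio of 1.67 (interval 1.49 to 1.87). All 3 lay within 2-fold.

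KRT6A had 0 counts in resistant cells, against 1 in parental cells, under the floor of 3 counts, which is 0.0869 CPM in resistant cells and 0.0868 in parental cells. KRT81 was taken as 0 in both. Both genes have close relatives: 39.1% of the 50-base windows of KRT6A and 44.6% of those of KRT81 occurred in other genes. For these 2 genes no difference was detectable.

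**Figure D3:**
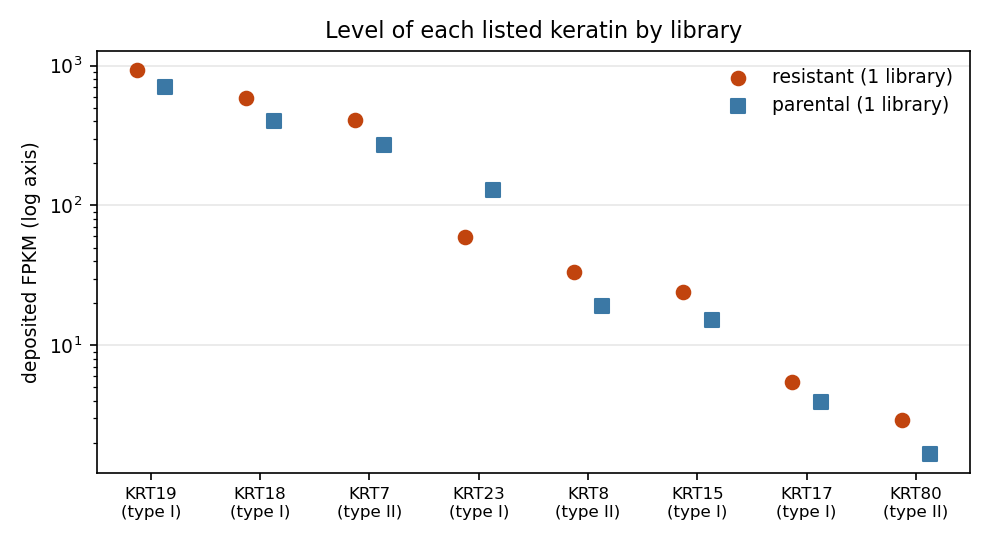
Deposited FPKM (log axis) of the 8 listed keratins with at least 50 counts, in the resistant library (circles) and the parental library (squares), ordered by the parental value. KRT19 is highest at 932 in resistant and 704 in parental cells, and KRT23 is the 1 gene whose resistant value, 59.1, lies below its parental value, 128.

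The pool of keratin transcripts was modestly larger in the resistant library, and KRT19, KRT18 and KRT7 made up most of it in both. The 10 members summed to 119210 counts in the resistant library, 0.346% of it (exact 95% interval 0.344 to 0.347), and to 99477 counts in the parental library, 0.288% (0.286 to 0.290). The ratio of the sums was 1.21 (interval 1.196 to 1.217), and it was 1.36 for KRT7, KRT8, KRT18 and KRT19 alone. From summed FPKM in place of counts, these ratios were 1.33 and 1.41. KRT19 made up 45.3% of the summed FPKM in resistant cells and 45.6% in parental cells. KRT18 made up 28.7% in resistant cells and 25.9% in parental cells, and KRT7 19.9% and 17.7%. KRT23 made up 2.87% in resistant cells and 8.315% in parental cells, the widest gap in share among the members. KRT8 held 1.62% in resistant cells and 1.24% in parental cells, and KRT15, KRT17 and KRT80 held less than KRT8 in each.

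**Figure D4:**
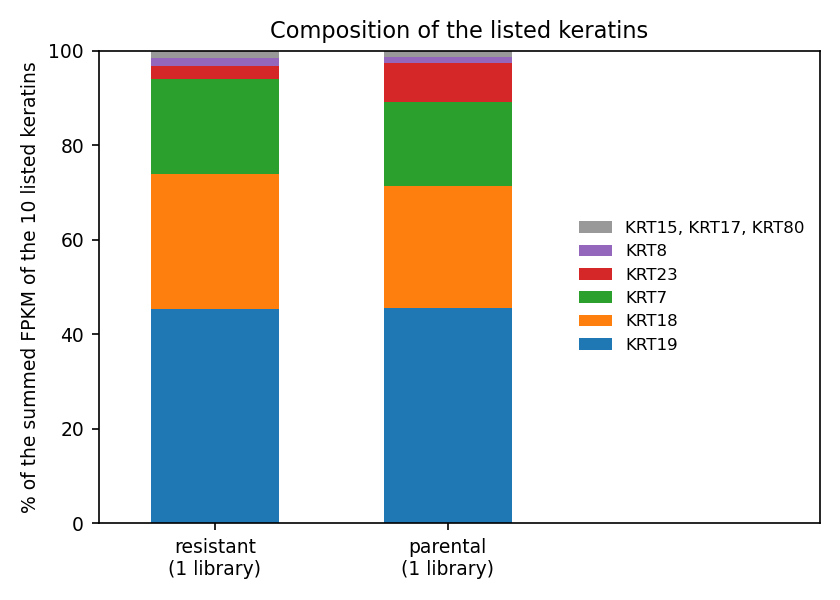
Share (%) of each listed keratin in the summed FPKM of the 10, in the resistant (left) and parental (right) library. KRT19 holds 45.3% in resistant and 45.6% in parental cells, and the band of KRT23 is 2.87% in resistant and 8.315% in parental cells.

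Type II transcripts were fewer than type I transcripts in both libraries. The summed FPKM of the 5 type II members was 446 in resistant cells and 294 in parental cells. That of the 5 type I members was 1611 in resistant cells and 1251 in parental cells. The ratio of type II over type I was 0.277 in resistant cells and 0.235 in parental cells. The summed type II counts had a ratio of resistant over parental of 1.47 (interval 1.441 to 1.502) and the summed type I counts one of 1.16 (interval 1.15 to 1.17). By summed FPKM these ratios were 1.52 for type II and 1.29 for type I. The low KRT8 row enters each type II sum. The 1 type I member below its parental value was KRT23, with 7465 counts in resistant cells, against 16931 in parental cells. KRT23 enters each type I sum, and a type I sum without it was not computed. The type I genes KRT19, KRT17, KRT18 and KRT15 had single ratios from 1.278 to 1.535. Those of the type II genes KRT7, KRT80 and KRT8 ran from 1.451 to 1.679.

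The length behind the FPKM values bears on these levels between genes. The length implied by each count, its FPKM and the library total came to 8361 bases in resistant cells and 8700 in parental cells for KRT80, which has 4350 exonic bases in release 29. For KRT8 it was 1337 bases in resistant cells and 1391 in parental cells, against 6881 exonic bases over all annotated transcripts. The principal KRT8 transcript has 1687 bases. For KRT23 the implied length was 3662 bases in resistant cells and 3812 in parental cells, beside 2902 exonic bases. The library size behind the FPKM values is not given. The implied lengths therefore hold only up to a factor shared by all genes of a library, and their gap between libraries is not one of gene length. With counts divided by the length of 1 principal transcript per gene, a scale chosen after seeing the data, KRT19 and KRT18 again ranked 1 and 2 in both libraries. On that scale KRT23 held 4.73% of the members' total in resistant cells and 13.2% in parental cells, where it ranked 3, ahead of KRT7 at 12.5%.

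Few other members of the family were detected at useful depth. Of 45 other keratin genes with a symbol, 17 had a row and 3 reached 50 counts, KRT20, KRT10 and KRT13, all type I. KRT20, a keratin of intestinal lining cells and urothelium, had 2401 counts in resistant cells, against 140 in parental cells, 17.3-fold higher (interval 14.55 to 20.62). KRT13, a keratin of moist stratified lining, had 250 counts in resistant cells, against 1142 in parental cells, 4.54-fold lower. KRT10, a keratin of upper epidermal layers, had 667 counts in resistant cells, against 715 in parental cells, a ratio of 0.939 (interval 0.844 to 1.045), and it overlaps TMEM99 on the opposite strand. The other 14 had at most 41 counts in a library, among them KRT14 and KRT16, the skin keratins.

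In the chromosome 17 cluster, KRT20 and KRT23 are adjacent coding genes in release 29, with log2 ratios of 4.10, called higher, and -1.17, called lower. KRT13, KRT15 and KRT19 follow each other in that order, with log2 ratios of -2.18, 0.62 and 0.35. On chromosome 12 the neighbours KRT80 and KRT7, at 0.74 and 0.54, and the neighbours KRT8 and KRT18, at 0.75 and 0.51, all lay within 2-fold.

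**Figure D5:**
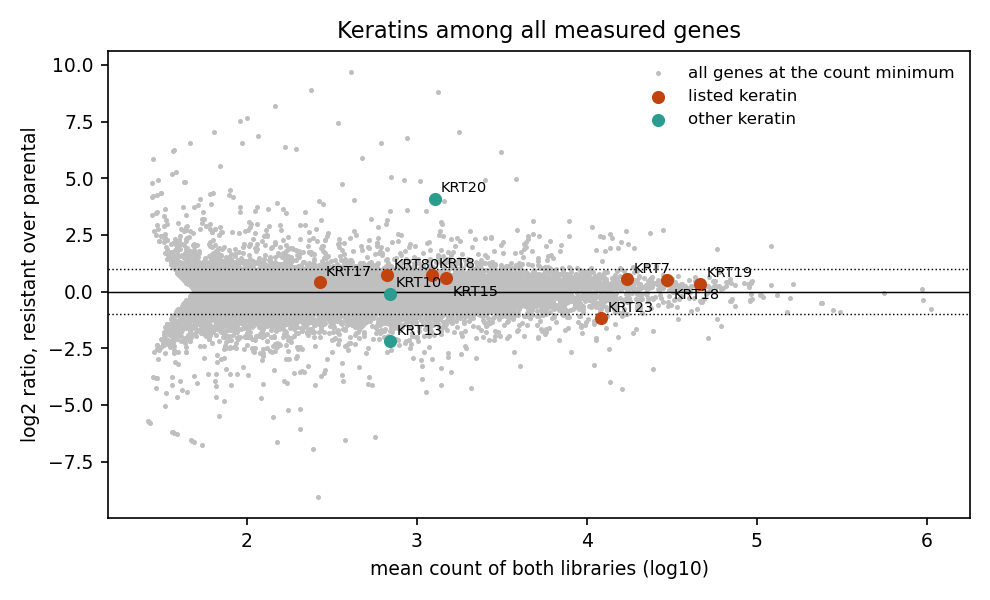
Log2 ratio (resistant over parental) against the mean count of both libraries (log10) for the 15102 genes that reached 50 counts, with the listed keratins in red and other keratins in green. KRT20 at 4.10 and KRT13 at -2.18 lie outside the dotted 2-fold lines, KRT23 at -1.17 just outside the lower one, and the other listed keratins inside.

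Genes that work with keratins were set beside them. Of 26 genes that anchor or organise keratin filaments, 23 reached 50 counts, and 0 were higher and 2 lower, with a median log2 ratio of -0.12. Of all genes at the count minimum, 6.00% were higher and 8.95% lower, so 2 lower of 23 is close to the whole table. The 2 lower calls were near the limit: 1 remained under upper quartile scaling or with the FPKM values. ITGB4, the hemidesmosome integrin chain that anchors keratins at the cell base, had 1307 counts in resistant cells, against 2802 in parental cells, a log2 ratio of -1.09. EVPL, envoplakin, a linker at desmosomes, had 2564 counts in resistant cells, against 5324 in parental cells, a log2 ratio of -1.04, and of -0.99 by FPKM, where it was no longer called. With the length trend removed the log2 ratios were -0.90 for ITGB4 and -0.61 for EVPL, both within 2-fold. DSP, desmoplakin, which ties keratins to desmosomes, had a log2 ratio of 0.36, with 20040 counts in resistant cells, against 15723 in parental cells.

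Of 16 other intermediate filament genes, 6 reached 50 counts and all 6 lay within 2-fold, with a median of 0.52. Of all genes at the count minimum, 15.0% passed 2-fold. The nuclear lamin genes LMNA and LMNB1 had the largest log2 ratios, 0.67 and 0.62. VIM, the filament gene of mesenchymal cells, had 46 counts in resistant cells, against 11 in parental cells, below the minimum.

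Of 32 transcription factor genes linked to keratin expression, 27 reached 50 counts, with 2 higher, 5 lower and a median of -0.43. The shares over all genes were 6.00% higher and 8.95% lower. CDX2, an intestinal factor, had 1042 counts in resistant cells, against 145 in parental cells, a log2 ratio of 2.85, and FOSL1, an AP-1 subunit, had a log2 ratio of 1.30. GATA3 and GRHL1, an epithelial factor of the grainyhead family, were lower, at -1.94 and -1.90. TP63, the master factor of stratified epithelium, had 24 counts in resistant cells, against 61 in parental cells, a log2 ratio of -1.30, and of -0.98, within 2-fold, with the length trend removed.

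Of 33 genes of the cornified envelope and squamous cells, 9 reached 50 counts, with 3 higher, 2 lower and a median of 0.58. The desmosomal cadherin genes DSG3 and DSC3 were higher, at log2 ratios of 2.05 and 1.93, and the protease inhibitor gene CSTA and S100A9 were lower, at -4.06 and -1.86. IVL, the defining envelope gene, had 2 counts in resistant cells, against 0 in parental cells. Of all genes, 15.0% passed 2-fold in either direction.

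Markers of the labelled cells and of other cells were read once. Beside the calls below, 6.00% of all genes at the count minimum were higher and 8.95% lower. All 7 pancreatic duct markers reached 50 counts, with summed FPKM of 2011 in resistant cells and 1388 in parental cells, and CFTR and MUC1 were lower. KRT7 and KRT19 are 2 of these 7 and gave 1343 FPKM in resistant cells and 977 in parental cells, and the other 5 gave 668 and 411. Most of the latter came from EPCAM, at 603 FPKM in resistant cells and 323 in parental cells. CDH1 also lay above its parental value, at 44.3 and 34.2 FPKM. SOX9, CFTR and MUC1 lay below theirs, SOX9 within 2-fold at a log2 ratio of -0.74. Of 6 breast luminal markers, GATA3 and MLPH reached 50 counts and both were lower, MLPH at 10.3 FPKM in resistant cells and 28.5 in parental cells. The 6 summed to 12.57 FPKM in resistant cells and 36.55 in parental cells. Of the rest, ESR1 had 18 counts in resistant cells, against 8 in parental cells, PGR had 1 and 4, and SCGB2A2 had no row and was taken as 0. Of 6 intestinal markers, 4 reached 50 counts and all 4 were higher, with summed FPKM of 52.7 in resistant cells and 2.15 in parental cells. KRT20, described above, is 1 of these 4 and gave 16.2 and 0.908 FPKM. The others were CDH17, VIL1 and SI. Below the minimum, CDX1 had 2 counts in resistant cells, against 0 in parental cells, and FABP1 had 10 and 0. Of 6 squamous or basal markers 3 reached 50 counts, with summed FPKM of 7.54 in resistant and 8.40 in parental cells, and KRT5 had no row. Fibroblast markers summed to 2.26 FPKM in resistant cells and 0.309 in parental cells, with 2 of 7 at 50 counts (LUM higher, COL1A1 lower, but at -0.88 and within 2-fold with the length trend removed) and no row for COL1A2 and THY1. Endothelial markers summed to 0.839 and 2.39 FPKM with 1 of 5 at 50 counts, ESAM, and no row for PECAM1 and CDH5. Leukocyte markers summed to 36.9 FPKM in resistant cells and 617.5 in parental cells, of which LYZ gave 32.7 and 615, with 3 of 6 at 50 counts (CORO1A higher, LYZ lower, CD68 within 2-fold) and PTPRC at 19 counts in resistant cells, against 7 in parental cells. Mesothelial markers summed to 3.19 FPKM in resistant cells and 0.994 in parental cells, with 2 of 4 at 50 counts, MSLN and WT1. The part of other cells in the keratin values was not tested.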

How the data were processed

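Per the labels' protocols, total RNA (Trizol) went into 1 ScriptSeq library per line, a kit that keeps strand. The deposited table holds whole-number counts per Ensembl gene and FPKM values computed by the authors, per the file headers. The submitters' processing notes list RSEM 1.2.3 and hg19 without saying how each was used. The annotation, strand setting and rule for shared reads were not given in the sources used here. Overlapping genes and genes with close copies are therefore uncertain.

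Symbols came from a gene name table (29536 identifiers matched) and GENCODE release 29 (29719 matched), which is on GRCh38, so it served for names, gene order, lengths and sequences and no genome coordinates are given. Ratios were scaled by TMM (edgeR 4.0.16, R 4.3.3) with Clopper-Pearson 95% intervals, and log2 ratios also had a prior of 1 count. Shared windows are exact same-strand matches to transcripts of other genes. Copies were aligned with blastn, and sequence of KRT8 and its copies is not reported here. Each of the genes is represented by its principal transcript with the longest coding sequence. The totals were 34507480 counts in the resistant and 34572931 in the parental library.

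The members, gene lists and named genes were chosen with earlier results of these data known. All 10 members were described, with every other keratin at 50 counts and up to 4 members per list past 2-fold, or the 2 largest. DSP, VIM, IVL and some markers at low counts were picked with values in view. The alternatives were other scalings (including DESeq2 1.42.0), priors, count minimums, fold sizes and FPKM. The ratio and size calls were checked on counts simulated with counting error only. For each simulated fold, the interval held the true value for 45 to 49 of 50 genes. The check does not cover variation between cultures or library preparations.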

Additional observations from a re-analysis of the deposited data

How the results depend on the processing

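No paired analysis was possible because each group has 1 library and the result comes from no test. No scaling moved the median log2 ratio of all genes by more than 0.1, the largest shift being 0.07 under the upper quartile. The log2 ratios of the 8 members kept their sign and their side of 2-fold under 8 alternatives. None of these alternatives added the counts of copies to a gene. The widest range was that of KRT80, at 0.675 to 0.965, and KRT23 stayed at -1.23 to -1.10. The members' median was 0.60 under upper quartile scaling, 0.575 with the deposited FPKM values, 0.46 with the median of ratios over genes at the count minimum, and 0.345 as a mean. The ratio of summed counts was 1.27 under the upper quartile and 1.16 without KRT19. Type II over type I was 0.237 in the resistant and 0.186 in the parental library from counts, 0.192 and 0.157 per annotated transcript length, and 0.256 and 0.2195 without KRT8. KRT23 was not past a 4-fold size, which left 0 members lower, and a 1.25-fold size put 7 members higher. Other keratins numbered 2 higher with a minimum of 10 counts, and 8 higher and 3 lower with no minimum. Companion list genes, 5 higher and 9 lower in the 4 lists, became 9 higher at a minimum of 10, 3 higher with 200, 18 and 17 with none, 2 and 1 at 4-fold, and 22 and 29 at 1.25-fold. All genes, 906 higher and 1352 lower, became 1975 and 2821 at a minimum of 10, 474 and 741 with 200, 5565 and 5887 with none, 252 and 250 at 4-fold, and 5199 and 5235 at 1.25-fold. These shifts in counts follow from the sizes and minimums themselves. The median of ratios over genes at the count minimum, the 1.25-fold size, removal of the length trend, the annotated transcript lengths and the sets without KRT8 or with its copies were chosen after seeing the data. KRT6A, with 1 count at most, and KRT81, with no row, give no ratio, and the lack of replicates limits how far any ratio speaks for the lines. Leaving out a library was not run, since each group has 1.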

Other observations

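Among the other keratins with a row, 5 were seen only in resistant cells, at 2 to 10 counts, against 0 in parental cells. They include KRT78, a type II keratin, at 10 counts, KRT12, the type I keratin of the cornea, at 8, and KRT83, a hair keratin, at 7. Conversely, 3 were at 0 in resistant cells, against 1 to 3 counts in parental cells, namely KRT71, KRT39 and KRT27. Of the 31845 genes, all with a count in at least 1 library, 27940 had counts in resistant cells and 28834 in parental cells. Genes seen in only 1 library were therefore not particular to the keratins. KRT86, which overlaps both KRT7 and KRT81 in release 29, had 9 counts in resistant cells, against 2 in parental cells. KRT16 had 20 counts in resistant cells, against 41 in parental cells, and KRT14 had 22 and 36. These genes were chosen after their values were seen, all lie below the minimum of 50 counts, and no fold is given for them. The antisense transcript KRT7-AS, opposite KRT7, had 98 counts in resistant cells, against 77 in parental cells.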
